A study of Danio rerio with 6 samples.

Results

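Oxidative phosphorylation is the set of 5 protein complexes in the inner mitochondrial membrane that pass electrons from NADH and succinate to oxygen and use the resulting proton gradient to make ATP. Complexes I, III, IV and V mix subunits encoded by the mitochondrial genome with subunits encoded in the nucleus, and complex II is wholly nuclear. The 2 sets of transcripts are made by different RNA polymerases in different compartments. The genes were taken from the count table by name: every row whose name begins with mt-, nduf followed by a, b, c, s or v, sdh followed by a, b, c or d, uqcr, cox followed by 4 to 8, or atp5. This gave 115 of 31901 rows, 13 from the mitochondrial genome and 102 nuclear, and no member name stood on more than 1 row. The 13 are the full set of protein genes that vertebrate mitochondrial DNA is known to carry. Of the nuclear rows, 88 are named for subunits (41 of complex I, 5 of complex II, 8 of complex III, 18 of complex IV and 16 of complex V), and the patterns also took in 7 assembly factors of complex I, 4 of complex II, 2 ATP synthase inhibitors and atp5s, known as coupling factor B. The name of the set is therefore slightly wider than its subunits. The names alone decided which rows entered, but the set was chosen with earlier results of these data known.

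RNA came from the regenerating caudal fins of shha:GFP zebrafish, a line in which a fluorescent reporter marks cells that express the Sonic hedgehog ligand gene shha. The sources used here give no age, sex or background strain. All fish were 4 days past amputation and received an intraperitoneal injection 5 hours before collection. The vehicle group (replicates 2, 3 and 4) had buffer with 50% PEG-400, 5% propylene glycol and 0.5% Tween-80. The BMS group (replicates 2, 3 and 4) had 40 mg/kg BMS-833923, a small-molecule inhibitor of the Hedgehog signal transducer Smoothened, in the same buffer. The treatment labels of BMS 3 and BMS 4 end in other digits than that of BMS 2, and the 3 were taken as 1 treatment because the design text names 1 compound. Each library is 1 pool of 4 regenerates cut to keep the shha:GFP domains and all tissue distal to them, so p-values measure the spread between pools. In such bulk tissue, fewer cells of a type and less RNA per cell cannot be told apart.

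Total counts ran from 16978747 (BMS 2) to 22659275 (BMS 4). Levels are given as CPM, the reads of a gene relative to the total reads of its library, with totals scaled by the trimmed mean of M values (TMM). They are not divided by transcript length, and so do not rank genes against each other. Hedgehog target genes, which check the treatment, summed to 97.1 to 160.0 CPM in the vehicle libraries and 47.6 to 81.5 CPM in the BMS libraries (4 genes, none of which passed the test, adjusted p = 1 by edgeR). BMS 2 stood apart from the other 5 libraries. Its TMM factor was 0.78, against 0.95 to 1.12 elsewhere, and cytosolic ribosomal protein rows took 8.29% of its counts, against 3.76% to 6.26%. Log2 fold changes of named genes and medians of gene lists are followed by their value without BMS 2 where leaving it out turned the sign or moved them by more than 1.5 times. Libraries that share a number deviated together from their group means, so differences within pairs 2, 3 and 4 are given beside the group comparison. Leaving out BMS 2 keeps vehicle 2, so the deviation shared by number 2 then stays in the vehicle group alone. Values without BMS 2 therefore hold that deviation as well as the loss of BMS 2. For the nuclear members tested, the median log2 fold change was 0.03 without BMS 2 and 0.10 without both libraries of number 2.

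No member passed the test. At an adjusted p under 0.05, edgeR's quasi-likelihood fit called 0 of 18541 rows (0%), and DESeq2 and edgeR's likelihood ratio test called 1 row each. An unadjusted p under 0.05 was reached by 198 rows in the quasi-likelihood fit (1.07%), of which 123 were higher in BMS (0.663%), and by 0 members. Of the 115 members, 105 passed the filter on low counts and were tested. With the replicate number as a block the quasi-likelihood fit again called 0 rows (0%). Unadjusted, it gave a p under 0.05 for 1307 rows (7.05%), of which 573 were higher in BMS (3.09%). Among the members these were cox4i2, ndufa7, cox7a1 and cox7b, all higher in BMS, or 4 of 105. DESeq2 with the block called 72 rows (0.388%), none of them a member. Among the members the smallest adjusted p was 0.687 by edgeR's blocked quasi-likelihood fit and 0.63 by DESeq2 with the block, the latter for cox4i2. The rest of the account therefore gives levels, their spread and their pattern over libraries.

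The 13 mitochondrial-genome genes together took overlapping shares of the counts in the groups. They held 2.38%, 2.23% and 2.48% of all counts in vehicle 2, 3 and 4, and 2.13%, 2.06% and 2.79% in BMS 2, 3 and 4. The group ranges overlapped, and BMS held both the lowest and the highest value. The difference of the means was -0.04 percentage points, against a within-group SD of 0.30. On the TMM scale the summed level was 24921, 21063 and 22209 CPM in vehicle versus 27337, 19844 and 25583 CPM in BMS. BMS 2 was thus the highest library by CPM and among the lower ones by share, and on both scales the groups overlapped.

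The nuclear members behaved differently in 1 library. Their summed level was 6505, 4985 and 5722 CPM in vehicle 2, 3 and 4, and 11502, 4581 and 6354 CPM in BMS 2, 3 and 4. BMS 2 was the highest of the 6 and BMS 3 the lowest, so the BMS group spanned the whole vehicle range. The log2 ratio of the group means was 0.38, the within-group SD of the log2 sums was 0.49, and without BMS 2 the ratio was -0.05. As a share of all counts, which does not depend on TMM, the nuclear members held 0.895% in BMS 2 and 0.475% to 0.694% in the other libraries. The mitochondrial counts were 2.38 times the nuclear counts in BMS 2 and 3.83 to 4.33 times in the other libraries.

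**Figure D1:**
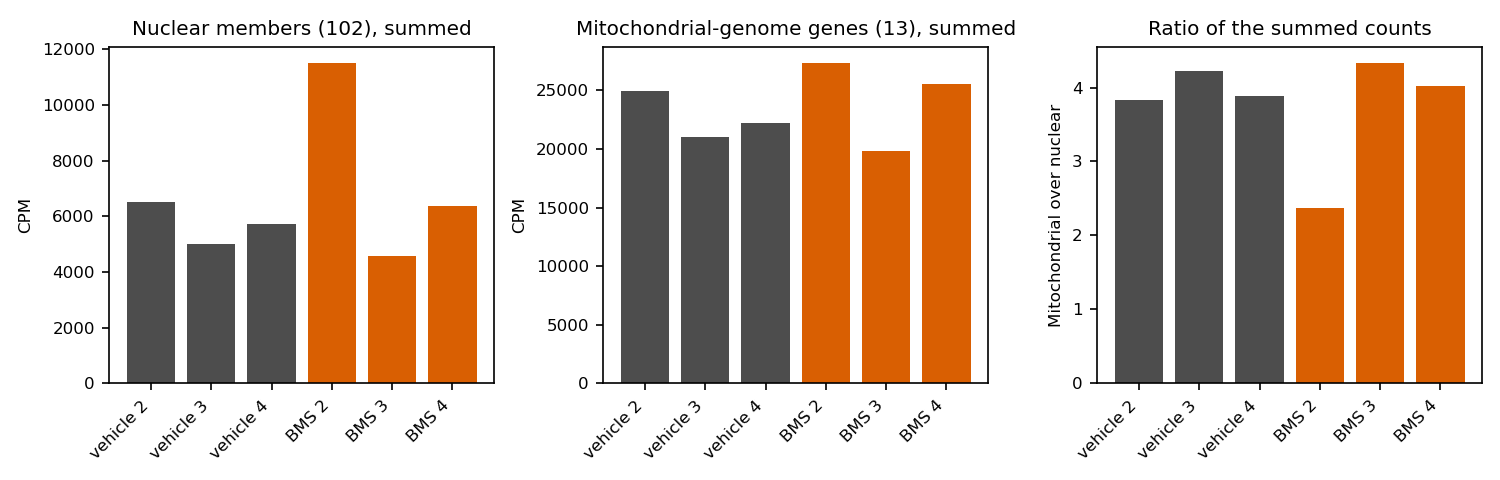
Summed CPM of the 102 nuclear members (left) and the 13 mitochondrial-genome genes (middle), and the ratio of their summed counts (right), 1 bar per library with vehicle in grey and BMS in orange. BMS 2 holds 11502 CPM of nuclear transcripts, against 4581 to 6505 CPM elsewhere, and has the lowest ratio (2.38).

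Among the mitochondrial-genome genes of complex IV, mt-co1, mt-co2 and mt-co3 encode the catalytic core that reduces oxygen. The level of mt-co1 was 7949, 6986 and 5459 CPM in vehicle against 8378, 6351 and 5601 CPM in BMS. Those values follow the replicate number: number 2 was highest and number 4 lowest in both groups, and the groups lay on top of each other. The log2 fold change of mt-co1 was 0.00 ± 0.34 (SE, 95% interval -0.76 to 0.75, edgeR quasi-likelihood test), and its sign differed between settings. For mt-co2 the level was 3086, 2657 and 3156 CPM in vehicle versus 3998, 2665 and 3974 CPM in BMS. BMS 2 and BMS 4 lay above every vehicle library and BMS 3 among them, with a log2 fold change of 0.26 ± 0.32 (interval -0.46 to 0.98). The level of mt-co3 was 3029 ± 475 CPM in vehicle against 3529 ± 955 CPM in BMS (mean ± SD of 3 libraries, as in later values of this form), a log2 fold change of 0.22, or 0.092 without BMS 2. For mt-co1 the value without BMS 2 was -0.18.

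The complex III gene of the mitochondrial genome is mt-cyb, which encodes cytochrome b. It was at 2279 ± 214 CPM in vehicle versus 2322 ± 377 CPM in BMS, a log2 fold change of 0.03 (interval -0.66 to 0.71) whose sign also differed between settings (0.071 without BMS 2). The ATP synthase gene mt-atp6, which encodes the proton-channel subunit a, was at 1974 ± 270 and 2172 ± 463 CPM, a log2 fold change of 0.14, or 0.055 without BMS 2. The complex I genes mt-nd1, mt-nd2, mt-nd3, mt-nd4 and mt-nd6 encode parts of the proton-pumping membrane arm. Their log2 fold changes were 0.02, 0.13, 0.20, 0.12 and 0.19, each with an SE of 0.29 to 0.34. Without BMS 2 they were -0.071, 0.027, 0.099, 0.14 and 0.012. Over all 13 genes the median was 0.12 (0.072 without BMS 2), beside 0.01 for all rows tested, and 9 of 13 values were positive, beside 51.5% of all rows. Within pairs, 9 of 13 were higher in BMS in pair 2, 1 in pair 3 and 13 in pair 4. All rows tested were higher in 50% of cases in pair 2, 49% in pair 3 and 43.6% in pair 4. A single mitochondrial gene, mt-co2, was higher in 3 of 3 pairs, where 14.1% of all rows were, and its margin in pair 3 was 0.00 log2 units.

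The mitochondrial-genome genes mt-atp8, mt-nd4l and mt-nd5 stood apart from their neighbours in BMS 2. The level of mt-atp8, a small ATP synthase subunit gene, was 35.0, 48.6 and 41.1 CPM in vehicle against 8.55, 39.4 and 46.8 CPM in BMS. BMS 2, with 113 reads where vehicle 2 had 717, was far below the other 5 libraries, and BMS 3 and BMS 4 lay within the vehicle range. The complex I gene mt-nd4l was at 82.2, 101 and 101 CPM in vehicle versus 38.5, 91.1 and 114 CPM in BMS, again with the lowest value in BMS 2. The complex I gene mt-nd5 was at 1192, 1288 and 1385 CPM in vehicle against 827, 1225 and 1509 CPM in BMS. Within pair 2 the differences were -2.03, -1.09 and -0.53 log2 units for mt-atp8, mt-nd4l and mt-nd5, while mt-atp6, mt-nd4 and mt-nd6 were at 0.20, 0.05 and 0.31.

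In the RefSeq table of the assembly GRCz12tu, used here for neighbours alone, each of these 3 genes overlaps the gene next to it: mt-atp8 overlaps mt-atp6, mt-nd4l overlaps mt-nd4 and mt-nd5 overlaps mt-nd6. The only other overlap among the 13 is that of mt-atp6 with mt-co3, and both were higher in pair 2. Counts of mt-atp8 were 0.346% of those of mt-atp6 in BMS 2 and 1.62% to 2.92% in the other 5 libraries. Counts of mt-nd4l were 2.27% of those of mt-nd4 in BMS 2 and 5.00% to 7.53% elsewhere. For mt-nd5 against mt-nd6 the figures were 120% and 214% to 318%. Reads on overlapping genes may be split or dropped by the counting, whose setting is not given in the sources used here, and the part of the overlap in these values was not tested. Without BMS 2 the log2 fold changes turned from -0.39 to 0.07 for mt-atp8, from -0.22 to 0.14 for mt-nd4l and from -0.12 to 0.10 for mt-nd5.

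**Figure D2:**
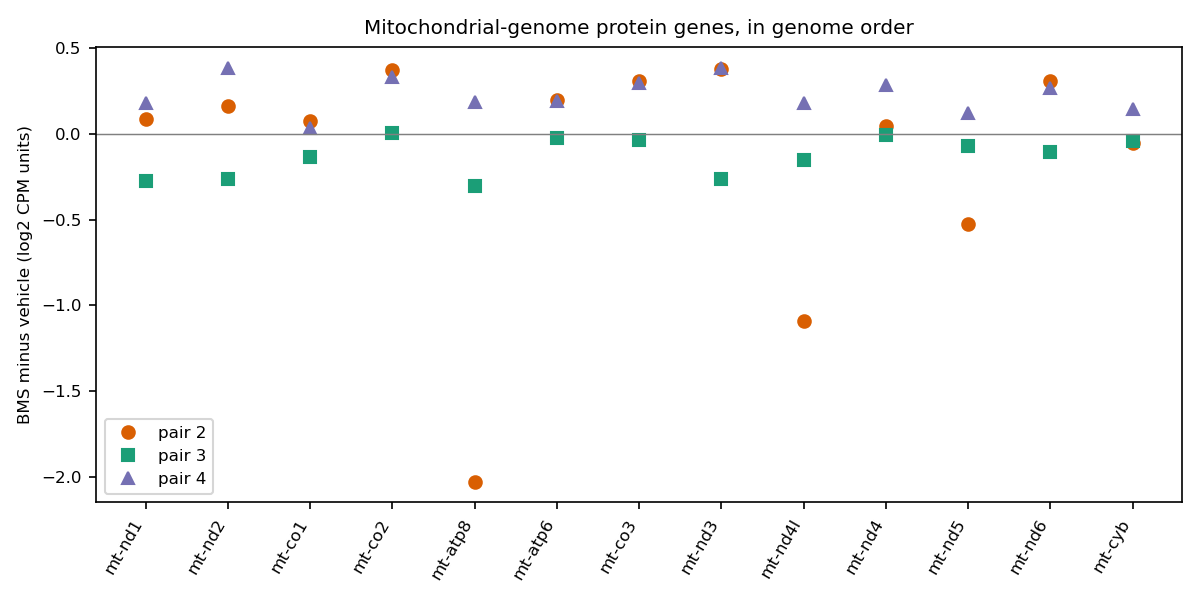
Difference in log2 CPM between the BMS and the vehicle library of the same number for each of the 13 mitochondrial-genome protein genes, in the order of the genome, with 1 symbol per pair. In pair 2, mt-atp8 (-2.03), mt-nd4l (-1.09) and mt-nd5 (-0.53) lie apart from the other genes, which stay between -0.05 and 0.38.

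Of the 92 nuclear members tested, 90 had a positive log2 fold change, with a median of 0.43, beside 51.5% positive and a median of 0.01 for all rows. The values differed by pair. In pair 2, 90 of 92 were higher in BMS (median difference 0.87 log2 units, 1.82-fold), where 50% of all rows were. In pair 3, 19 of 92 were higher (median -0.11), where 49% of all rows were, and in pair 4 86 of 92 were higher (median 0.19), where 43.6% were. BMS 2 held the highest of the 6 values for 87 of the 92, where it did so for 32.5% of all rows. Higher in 3 of 3 pairs were 17 of 92, or 18.5%, which is near the 14.1% of all rows. None was lower in 3 of 3 pairs, where 17.5% of all rows were. No member had all BMS libraries above or below all vehicle libraries, where 2.16% and 1.76% of all rows did. Without BMS 2, 60 of the 92 had a positive log2 fold change and the median was 0.03. Without both libraries of number 2, 75 of 92 were positive and the median was 0.10. The lowest single value was that of ndufa9b in pair 3, at -2.65 log2 units, which rests on 10 reads in vehicle 3 and 1 read in BMS 3.

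**Figure D3:**
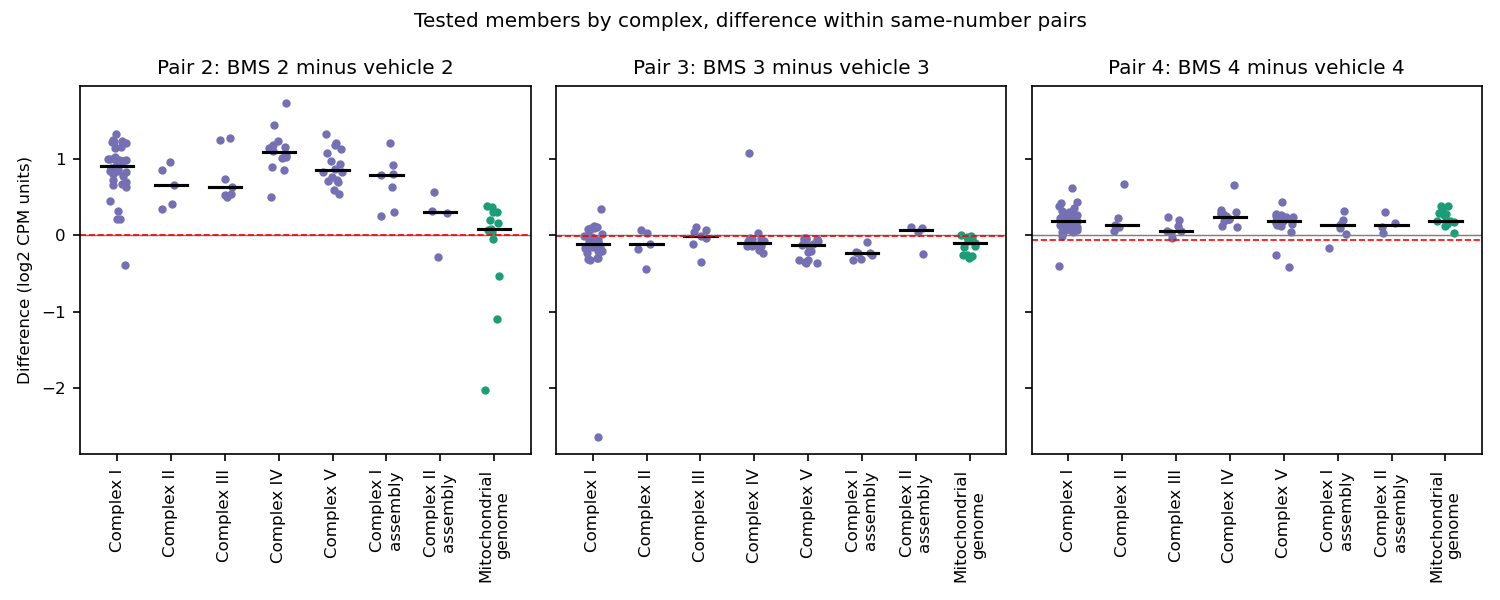
Each point is 1 tested member, placed by its complex, and its height is the log2 CPM of the BMS library minus that of the vehicle library of the same number, with a panel per pair. Black bars are medians and the red dashed line is the median of all rows tested. Nuclear members lie mostly above 0 in pair 2 (median 0.87) and, by a smaller margin, in pair 4 (median 0.19). In pair 3 they lie mostly below 0 (median -0.11).

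Complex I takes electrons from NADH and is the largest complex of the chain. Of its 41 nuclear subunit rows, which by name include 4 of the ndufa4 family described with complex IV, 36 were tested, 35 had a positive log2 fold change, and the median was 0.44. Without BMS 2, 25 of the 36 were positive and the median was 0.038. The gene of the NADH-binding core subunit, ndufv1, was at 143, 109 and 115 CPM in vehicle versus 179, 104 and 121 CPM in BMS. BMS 2 was the highest library, BMS 3 was the lowest and BMS 4 was among the vehicle values, with a log2 fold change of 0.14 ± 0.30 (interval -0.52 to 0.80), or -0.10 without BMS 2. The accessory subunit gene ndufa7 was at 14.4, 12.4 and 17.1 CPM in vehicle against 33.8, 13.4 and 22.2 CPM in BMS. It was higher in all 3 pairs (1.22, 0.11 and 0.38 log2 units), and its log2 fold change was 0.66 ± 0.36 (interval -0.14 to 1.45, adjusted p = 1 by edgeR), or 0.31 without BMS 2. With the replicate block, edgeR gave 0.57 with an unadjusted p of 0.0382 and an adjusted p of 0.687.

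Core and accessory subunits of complex I had different medians within pair 2, with overlapping ranges. This grouping, like those by part of the enzyme below, was made with the values known and has no test. The 6 tested nuclear genes of the catalytic core differed by 0.21 to 0.83 log2 units, with a median of 0.67. The 28 tested accessory genes had a median of 0.98 and ranged from 0.21 to 1.33, the highest being ndufa5. In complex III the order was the same. Its genes for the large core proteins and the iron-sulfur protein (uqcrc1, uqcrc2a, uqcrc2b and uqcrfs1) were at 0.50 to 0.63, and the small subunit genes uqcrh, uqcrq and uqcr10 at 0.74 to 1.28. Coding and transcript lengths were not used here, so the part of transcript length was not tested. Beside these values, cytosolic ribosomal protein rows had a median of 1.05 in pair 2, -0.09 in pair 3 and 0.25 in pair 4 (85 tested), and mitochondrial ribosomal protein rows 0.72, -0.09 and 0.13 (74 tested). The part of a library-wide difference of BMS 2 in the nuclear values was not tested.

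Complex II, succinate dehydrogenase, also belongs to the tricarboxylic acid cycle. The gene of its flavoprotein, sdha, was at 138, 105 and 91.5 CPM in vehicle versus 174, 97.0 and 101 CPM in BMS. The gene of its iron-sulfur subunit, sdhb, was at 63.4, 46.8 and 48.8 CPM in vehicle against 100.2, 49.2 and 57.3 CPM in BMS. The BMS 2 value was the highest for both genes and the other BMS values lay within the vehicle range. The log2 fold changes were 0.16 ± 0.32 and 0.38 ± 0.33, or -0.16 and 0.021 without BMS 2. In pair 2 sdha differed by 0.34 log2 units and sdhc, which encodes a membrane anchor, by 0.97.

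Complex III passes electrons from ubiquinol to cytochrome c. Its core protein gene uqcrc1 was at 130 ± 22.3 CPM in vehicle versus 155 ± 37.8 CPM in BMS. It was higher in 3 of 3 pairs (0.54, 0.11 and 0.06 log2 units), with a log2 fold change of 0.25 (interval -0.41 to 0.91), or 0.089 without BMS 2. The Rieske iron-sulfur protein gene uqcrfs1 was at 109, 84.3 and 84.9 CPM in vehicle against 169.9, 78.2 and 86.9 CPM in BMS. BMS 2 lay far above the vehicle range, BMS 3 below it and BMS 4 within it, and the log2 fold change of 0.27 ± 0.34 turned to -0.16 without BMS 2. Without both libraries of number 2 the log2 fold change of uqcrfs1 was -0.010.

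Complex IV, cytochrome c oxidase, had the highest median of the nuclear subunit groups in pair 2 (2.14-fold, 14 tested), and its medians were -0.09 log2 units in pair 3 and 0.24 in pair 4. The gene of its subunit 4, cox4i1, was at 211, 162 and 213 CPM in vehicle versus 428, 158 and 260.2 CPM in BMS. BMS 2 was far above every vehicle library, BMS 4 was above them by a smaller margin and BMS 3 was the lowest of all. The log2 fold change was 0.53 ± 0.38 (interval -0.31 to 1.37), or 0.12 without BMS 2. The subunit gene cox6b2 was at 163 ± 23.8 and 220.5 ± 99.97 CPM, a log2 fold change of 0.43, or 0.050 without BMS 2. The subunit gene cox7c was at 60.2, 52.7 and 64.2 CPM in vehicle against 164, 48.3 and 79.4 CPM in BMS, the highest pair 2 difference of the complex (1.45 log2 units) after that of cox7a1, a gene with few reads. Its log2 fold change was 0.72, or 0.14 without BMS 2.

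Several complex IV subunits exist as isoforms that other vertebrates use in different tissues, and the data show which genes carried the reads in the fin. In mammals COX4I2 is the oxygen-responsive and lung-enriched form of subunit 4. Its zebrafish namesake cox4i2 was at 21.8, 17.2 and 16.5 CPM in vehicle versus 48.6, 16.6 and 26.3 CPM in BMS. BMS 2 and BMS 4 were above all vehicle libraries and BMS 3 was within their range. The log2 fold change was 0.72 ± 0.38 (interval -0.14 to 1.58, unadjusted p = 0.092 by edgeR), and 0.60 with the block (unadjusted p = 0.0319, adjusted p = 0.687). Without BMS 2 it was 0.24. Counts of cox4i2 were 7.75% to 10.6% of those of cox4i1 in vehicle and 10.1% to 11.4% in BMS. The third subunit 4 gene, cox4i1l, had 0 to 4 reads per library.

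Mammalian COX7A1, COX6A2 and COX8B are the forms of heart and skeletal muscle. The gene cox7a1 was at 1.02, 0.55 and 1.71 CPM in vehicle against 3.48, 1.19 and 1.98 CPM in BMS, which is 13 to 43 reads and 25 to 49 reads. It had the highest log2 fold change of the nuclear members (0.99 ± 0.53, interval -0.19 to 2.17, unadjusted p = 0.0901 by edgeR) and was higher in 3 of 3 pairs (1.74, 1.08 and 0.21). With the block its unadjusted p was 0.0275 and its adjusted p 0.687, and without BMS 2 its log2 fold change was 0.55. The group ranges overlapped. Counts of cox6a2 and cox8b stayed at 3 to 13 reads per library and were not tested. The genes of the forms named for other tissues, cox7a2a, cox6a1 and cox8a, were at 42.4 ± 4.48, 128 ± 24.1 and 56.7 ± 8.85 CPM in vehicle versus 59.8 ± 26.1, 173 ± 97.9 and 81.3 ± 45.7 CPM in BMS. For cox7a3 the levels were 31.3 ± 5.27 and 37.4 ± 13.3 CPM. The log2 fold changes of cox7a2a, cox6a1, cox8a and cox7a3 were 0.49, 0.44, 0.52 and 0.25, and without BMS 2 they were 0.12, -0.069, 0.0053 and 0.016. Muscle marker genes (9 in the table, 3 tested, none at 0 in all libraries) summed to 24.9 to 42.0 CPM in vehicle against 27.7 to 36.8 CPM in BMS. The highest sum was in a vehicle library, while 2 of the 3 tested muscle markers had positive log2 fold changes (median 0.44). The part of muscle in the cox7a1 values was not tested.

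The NDUFA4 protein, first assigned to complex I, is now known as a complex IV subunit. Its fin reads lay on ndufa4l, at 144, 118 and 155 CPM in vehicle versus 283, 103 and 174 CPM in BMS, a log2 fold change of 0.42 ± 0.37 that was 0.014 without BMS 2, while ndufa4 had 6 to 11 reads per library and ndufa4l2b 0 or 1. Human NDUFA4L2 is a hypoxia-induced paralog. The zebrafish gene ndufa4l2a was at 15.4, 10.7 and 17.9 CPM in vehicle against 11.7, 13.6 and 13.5 CPM in BMS. All BMS values lay inside the vehicle range. It was the only nuclear subunit gene with a negative log2 fold change (-0.18 ± 0.29, interval -0.82 to 0.46, or -0.11 without BMS 2), and unlike the others it was lower in BMS 2 than in vehicle 2 (-0.39 log2 units). Its counts were 4.14% of those of ndufa4l in BMS 2 and 7.78% to 13.3% in the other libraries.

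**Figure D4:**
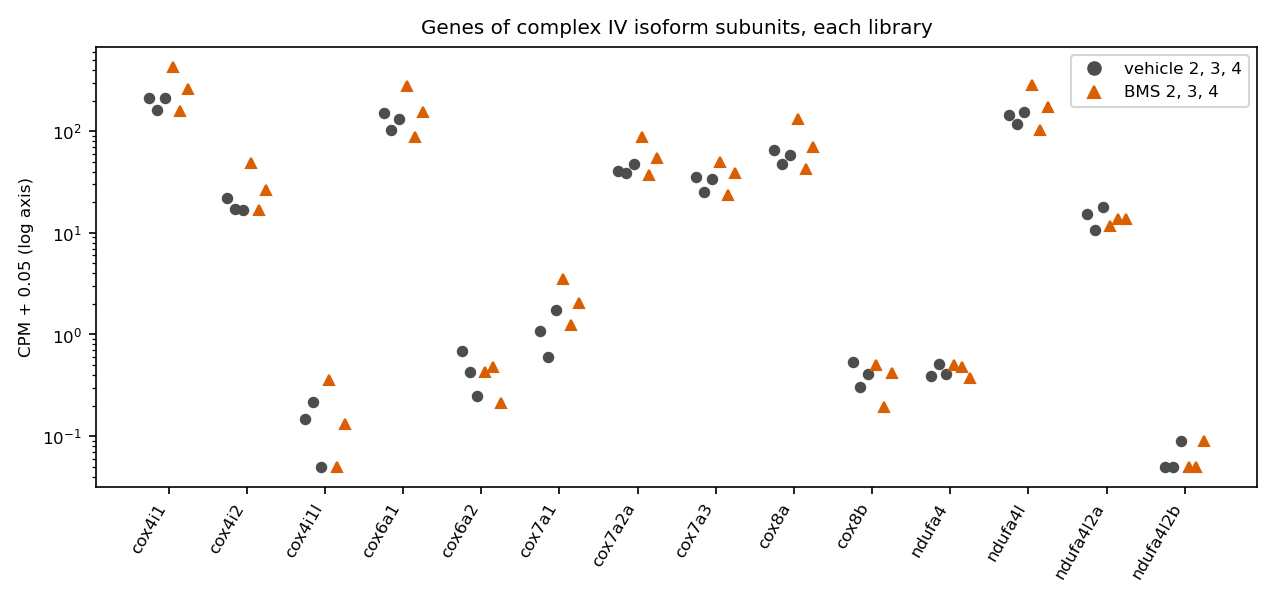
CPM of the genes of complex IV subunits 4, 6a, 7a and 8 and of the ndufa4 family in each library, with 0.05 added for the log axis, vehicle as grey circles and BMS as orange triangles. For cox4i1, cox6a1, cox8a and ndufa4l BMS 2 lies highest and BMS 3 lowest, while ndufa4l2a stays between 10.7 and 17.9 CPM.

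Complex V is the ATP synthase. All 16 of its nuclear subunit rows were tested, and 16 of 16 had positive log2 fold changes (median 0.41) and were higher in pair 2 (0.55 to 1.32 log2 units). Without BMS 2, 9 of the 16 were positive and the median was 0.020. None was higher in pair 3 (-0.36 to -0.03). By part of the enzyme, the pair 2 median was 0.76 for the catalytic head with its central stalk (5 genes) and 1.0004 for the peripheral stalk (4). It was 0.73 for the membrane ring of subunit c (3) and 1.03 for the small membrane subunits (4). The genes of the β and α subunits of the catalytic head, atp5f1b and atp5fa1, differed from most other subunit genes of the complex by replicate number. The level of atp5f1b was 625, 466 and 309.97 CPM in vehicle 2, 3 and 4, and 943, 374 and 258 CPM in BMS 2, 3 and 4. That of atp5fa1 was 522, 364 and 242 CPM in vehicle versus 764, 284 and 182 CPM in BMS. For both genes number 2 was highest and number 4 lowest in each group. The span within a group exceeded the difference between the groups, with log2 fold changes of 0.17 ± 0.49 and 0.12 ± 0.52. These SEs come from the fit without the replicate block and so include the spread by number. With the block the SE of atp5fa1 was 0.23.

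From number 2 to number 4, atp5fa1, atp5f1b and the δ subunit gene atp5f1d differed by -1.11, -1.01 and -0.78 log2 units in vehicle. In the other 13 subunit genes of the complex this difference lay between -0.23 and 0.24. In BMS the differences were -2.07, -1.87 and -1.56, against -1.07 to -0.38 in the other 13. The 3 genes were singled out after their values were seen. Outside the subunits of the complex, the inhibitor gene atp5if1a was close to atp5f1d, at -0.75 in vehicle and -1.34 in BMS. The complex I assembly factor gene ndufaf3 was at -0.65 and -1.42. Some mitochondrial genes outside the members also fell from number 2 to number 4. The carrier gene slc25a3b went from 368 to 201 CPM in vehicle and from 517 to 162 CPM in BMS. The tricarboxylic acid cycle gene fh went from 54.6 to 29.4 CPM and from 72.6 to 27.2 CPM. Others did not, such as idh3a of the same cycle, at 74.8 and 90.9 CPM in vehicle. A fall of this kind was therefore not particular to ATP synthase genes. Counts of atp5f1b were 354%, 305% and 153% of those of the central stalk gene atp5f1c in vehicle 2, 3 and 4, and 315%, 251% and 112% in BMS. The median of all rows tested between numbers 2 and 4 was 0.01 in vehicle and -0.07 in BMS. Both libraries of number 4 lay below both of number 2 in 29.8% of all rows tested, and in 20 of the 92 nuclear members tested. In BMS, atp5fa1 and atp5f1b were lower than vehicle in pair 3 (-0.36 and -0.32) and in pair 4 (-0.41 and -0.26), and higher in pair 2 (0.55 and 0.59). Without BMS 2 but with vehicle 2 kept, their log2 fold changes were -0.69 and -0.56, which includes the difference by number. Without both libraries of number 2 they were -0.37 and -0.28, and with the replicate block -0.08 and 0.00.

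**Figure D5:**
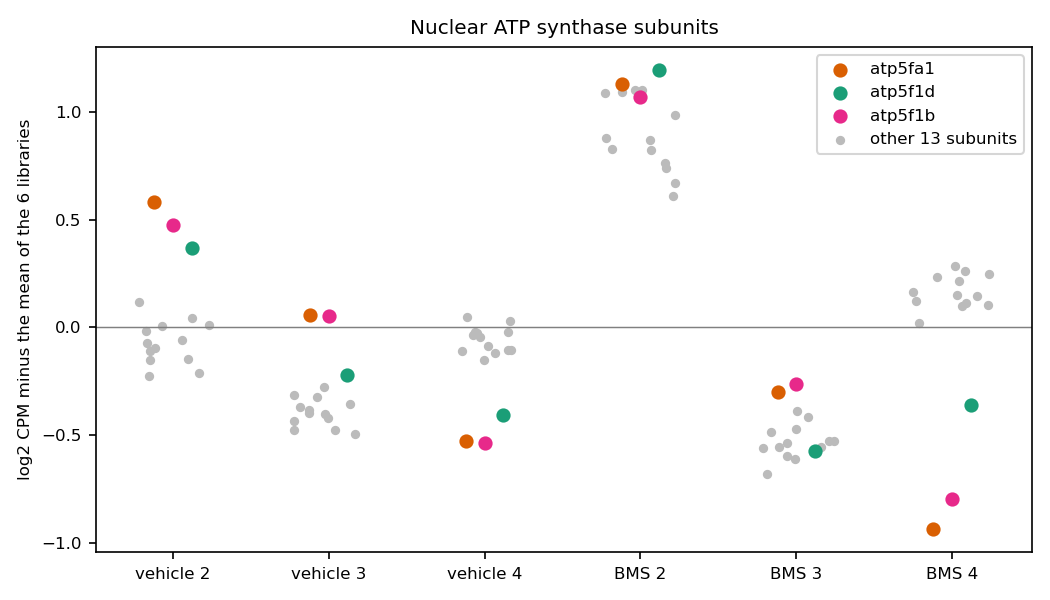
Level of each of the 16 nuclear ATP synthase subunit genes in each library, as log2 CPM minus the gene's mean over the 6 libraries. The 13 subunits in grey lie close together in each library, and atp5fa1, atp5f1b and atp5f1d are in colours. Of the coloured genes, atp5fa1 and atp5f1b lie above the grey ones in vehicle 2 and vehicle 3 and below them in vehicle 4 and BMS 4.

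The inhibitor protein Atpif1 blocks ATP hydrolysis when the membrane potential is lost, and zebrafish carry a pair of genes for it. The level of atp5if1a was 41.2, 24.7 and 24.6 CPM in vehicle against 74.7, 20.9 and 29.4 CPM in BMS. That of atp5if1b was 46.5, 42.9 and 55.2 CPM in vehicle versus 93.2, 40.2 and 65.6 CPM in BMS. Both were highest in BMS 2 and lowest in BMS 3, each with a log2 fold change of 0.46 (SE 0.46 and 0.33). Without BMS 2 these were -0.24 for atp5if1a and 0.16 for atp5if1b. The complex I assembly factor genes (7 of 7 tested) were higher in pair 2 by 0.26 to 1.22 log2 units, with a median of 0.79, and lower in pair 3 by -0.32 to -0.09. The complex II assembly factor genes (4 of 4 tested) had a median of 0.31 in pair 2. Among them sdhaf1 was at 4.15, 3.50 and 4.76 CPM in vehicle against 3.41, 3.76 and 4.85 CPM in BMS, and its log2 fold change of -0.04 ± 0.31 was the only other negative value of the nuclear members (0.074 without BMS 2).

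The other 10 members, all nuclear, did not pass the filter: ndufs1, ndufs8b, ndufb4, ndufa4, ndufa4l2b, uqcrb, cox4i1l, cox5b2, cox6a2 and cox8b. Each had at most 13 reads in any library. The row ndufs1, named for the largest core subunit of complex I, had 0 reads in all 6 libraries. Relative to total counts without the TMM factor, a count of 0 allows at most 0.132 to 0.177 CPM, depending on the library. This limit rests on 3 counts and covers counting error only. On the TMM scale the limit is higher for BMS 2, whose factor was 0.78. The row uqcrb, named for a complex III subunit, had 0 to 7 reads. Reads of these genes on other rows were not analysed here.

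The other mitochondrial gene lists, each chosen by function, were read in the same fit, and none of their members passed the test. Assembly factors outside the name patterns had a median log2 fold change of 0.18 (26 of 31 positive), electron carriers 0.25 (6 of 6), ubiquinone synthesis genes 0.20 (10 of 11) and mitochondrial ribosomal protein genes 0.34 (72 of 74). Without BMS 2 these medians were 0.041, -0.013, -0.0077 and 0.015, so each lay close to 0. The tricarboxylic acid cycle genes had 0.07 (11 of 19 positive) and went to -0.16 without BMS 2. Within this cycle the citrate synthase gene cs was at 156, 149 and 121 CPM in vehicle versus 116, 124 and 115 CPM in BMS, lower in 3 of 3 pairs (-0.42, -0.26 and -0.07 log2 units), where 17.5% of all rows were. It lay below vehicle 2 in BMS 2, where nearly all nuclear subunit genes lay above.

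Genes of mitochondrial DNA replication and transcription had a median of 0.19 (8 of 12 positive), or 0.085 without BMS 2. The mitochondrial transcription factor gene tfam was at 22.6, 15.4 and 20.9 CPM in vehicle versus 26.6, 18.4 and 24.4 CPM in BMS, with similar differences in the 3 pairs (0.24, 0.25 and 0.22). Of the 12 genes, 4 were higher in 3 of 3 pairs and 2 were lower, where 14.1% and 17.5% of all rows were. Among the lower was polg (-0.35, -0.25 and -0.34 log2 units). The largest log2 fold change of the list was negative, that of twnk (-0.66). The mitochondrial RNA polymerase gene polrmt was at 10.5, 11.9 and 9.76 CPM in vehicle against 10.9, 9.46 and 9.17 CPM in BMS. Nuclear regulators of mitochondrial genes had a median of -0.22 (1 of 6 positive), and the median was negative in each setting run. Of these, the coactivator gene ppargc1b was at 21.8, 20.5 and 17.1 CPM in vehicle versus 13.9, 18.1 and 16.0 CPM in BMS, and the transcription factor gene nrf1 at 25.6, 23.5 and 23.9 CPM and 15.8, 20.5 and 25.9 CPM. In pair 2 ppargc1b and nrf1 were lower in BMS (-0.64 and -0.69 log2 units). Of the 6 regulators, 3 were lower in that pair and 3 higher, among them gabpa (0.39). The coactivator gene ppargc1a had at most 0.24 CPM in any library. The carriers and uncoupling proteins had a median of 0.21 (6 of 6 tested positive), which turned to -0.12 without BMS 2. Their medians were 0.52 in pair 2, -0.13 in pair 3 and 0.08 in pair 4. Of these, ucp2 was at 455, 299 and 357 CPM in vehicle against 1004, 372 and 509 CPM in BMS. It was higher in 3 of 3 pairs (1.14, 0.31 and 0.51 log2 units), the groups overlapped, and its log2 fold change of 0.76 (0.27 without BMS 2) did not pass the test. Genes of mitophagy and mitochondrial dynamics had a median of 0.06 (5 of 7 positive), or 0.0057 without BMS 2.

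On the TMM scale BMS 2 also held the highest sum of several lists of cell type markers. Markers of superficial and intermediate epidermis (9 of 9 in the table, 9 of 9 with positive log2 fold changes) summed to 22535 to 27767 CPM in vehicle versus 20841 to 36175 CPM in BMS, the highest being BMS 2. Markers of basal epidermis (6) summed to 1759 to 2184 CPM in vehicle against 1862 to 3013 CPM in BMS, and those of fin mesenchyme and blastema (8) to 2991 to 8135 CPM and 2145 to 8287 CPM, with BMS 2 highest in both lists. Single markers did not all follow the sums, since 2 of 6 basal epidermis markers (median log2 fold change -0.12) and 4 of 8 mesenchyme markers (0.03) had positive log2 fold changes. For osteoblasts (7 markers) the sums were 3627 to 4594 CPM in vehicle against 2831 to 5533 CPM in BMS, again with BMS 2 highest. Of the 6 tested osteoblast markers, 1 had a positive log2 fold change (median -0.13). The order depended on the scale, since the TMM factor of BMS 2 was low (0.78). As a share of all counts, BMS 2 stayed highest for both epidermis lists. For the mesenchyme and osteoblast lists it did not, and a vehicle library was highest. Markers of ionocytes, which are rich in mitochondria (6 in the table, 3 tested), summed to 633 to 761 CPM in vehicle versus 598 to 899.6 CPM in BMS, with 721 CPM in BMS 2, inside the vehicle range. No marker of these lists was at 0 in all libraries. The part of cell composition in the nuclear values was not tested.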

How the data were processed

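RNA-seq counts of 6 libraries, each a pool of 4 fin regenerates, were analysed. The authors deposited whole-number counts per gene row and a table of normalized values, a signal on a CPM scale that differs from the counts by a fixed factor for each library and holds 96 of the members; it entered no test. Per the submitters' processing notes, the build was GRCz11 and the tools named were Bowtie2 2.33, edgeR 4.3.2, HTSeq 0.6.1 and TopHat2 2.1.1; the sources used here give neither annotation nor strand setting, so reads on overlapping genes are uncertain. Symbols are those of the count table, and 101 of 115 members matched the RefSeq table as symbol or synonym.

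Deposited counts were fitted in R 4.3.3 with edgeR 4.0.16 (TMM, filterByExpr by group, robust quasi-likelihood dispersion, a group term and no other), and the two-sided quasi-likelihood test was used with Benjamini-Hochberg adjustment over 18541 rows and a threshold of 0.05. Intervals are 95%. Differences within pairs used log2 CPM with a prior count of 0.5. Whether replicate numbers pair the libraries was checked by the correlation, across rows, of deviations from group means: 0.55, 0.52 and 0.59 for numbers 2, 3 and 4, all over 0.1, so they were taken as pairs, a reading from these data and not from the labels. No 2 libraries of a group were alike within counting noise (lowest chi-square ratio to its degrees of freedom 35.5). Alternatives were DESeq2 (1.42.0), limma-voom (3.58.1), the likelihood ratio test, other scalings and filters, fits with the replicate block, and fits that left out 1 library. Fits that left out a whole pair, and counts of 3 of 3 pairs under other scalings, were chosen after seeing the data. The quasi-likelihood fits, with and without the block, were first run on simulated data. Those data had no deviation shared by replicate number and no library that stood apart like BMS 2. They therefore did not test how the fits handle these features. Members and lists were chosen with earlier results of these data known. Named were all mitochondrial-genome genes, the 2 nuclear genes of highest mean CPM per complex, up to 4 of smallest p in each direction, complex IV isoform genes and inhibitors; others named were chosen after their values were seen. Sequences were not used here. Some single genes are not reported here.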

Additional observations from a re-analysis of the deposited data

How the results depend on the processing

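No member was called under any of the 22 alternative settings. Of the 35 named members with a fit, 19 kept the sign of their log2 fold change in each setting and 16 did not, 12 of them when BMS 2 was left out. For sdha, cox6a1, atp5if1a and mt-atp8 the sign turned only without BMS 2, a setting that keeps vehicle 2. Over the settings the median of the nuclear subunit genes, 0.44 in the reported fit, stayed positive, from 0.04 without BMS 2 to 0.71 without BMS 3, and that of the mitochondrial-genome genes ran from -0.01 to 0.26, and total-count scaling alone moved the median of all rows to -0.10. In the reported fit 0 rows were called among all tested, 1 with DESeq2, 1 with the likelihood ratio test, 72 with DESeq2 and the replicate block and 104 with the likelihood ratio test and the replicate block. The replicate block changed no other call. Higher in 3 of 3 pairs were 1 mitochondrial-genome gene in the reported scaling, 2 with RLE scaling and 0 with total-count scaling. The causes of these differences were not tested.

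With total-count scaling the median log2 fold change was -0.33 for nuclear regulators and -0.029 for mitophagy genes, and the values were -0.10 for mt-nd1, -0.071 for mt-cyb, -0.0019 for ndufv1, -0.033 for atp5f1b and -0.086 for atp5fa1. With no filter, mt-nd1 was at -0.031 and mt-cyb at -0.015. Limma-voom gave -0.00067 for mt-nd1 and -0.055 for atp5fa1. With the replicate block, the quasi-likelihood test gave -0.0022 for mt-nd1 and -0.076 for atp5fa1, and the likelihood ratio test -0.0022 and -0.076. DESeq2 with the replicate block gave -0.0093 for mt-nd1, -0.0038 for atp5f1b and -0.083 for atp5fa1, and limma-voom with the replicate block -0.00513, -0.00853 and -0.092. Without both libraries of number 2 the medians were -0.012 for mitochondrial DNA genes and -0.14 for regulators, and the values 0.053 for mt-nd4l, 0.059 for mt-nd5, -0.010 for uqcrfs1, -0.28 for atp5f1b, -0.37 for atp5fa1 and 0.084 for sdhaf1. Without both libraries of number 3, regulators were at -0.28, mitophagy genes at -0.056 and mt-co1 at 0.016. Without those of number 4, mt-nd1 was at -0.068, mt-nd2 at -0.0060 and mt-cyb at -0.047.

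With 1 library left out at a time, the medians ran from -0.16 to 0.19 for tricarboxylic acid cycle genes, from -0.25 to -0.17 for regulators and from -0.091 to 0.061 for mitophagy genes. Single genes ran from -0.071 to 0.17 (mt-nd1), -0.18 to 0.12 (mt-co1), -0.79 to 0.072 (mt-atp8), -0.55 to 0.14 (mt-nd4l), -0.027 to 0.26 (mt-nd4), -0.33 to 0.10 (mt-nd5), -0.11 to 0.12 (mt-cyb) and -0.10 to 0.29 (ndufv1). The ranges were -0.16 to 0.33 for sdha, -0.16 to 0.46 for uqcrfs1, -0.069 to 0.75 for cox6a1, -0.56 to 0.49 for atp5f1b, -0.69 to 0.48 for atp5fa1, -0.24 to 0.78 for atp5if1a and -0.21 to 0.074 for sdhaf1. Without BMS 3 in place of BMS 2 the medians were higher for assembly factors (0.42), electron carriers (0.43), ubiquinone synthesis (0.39), mitochondrial ribosome (0.56), carriers (0.41) and mitochondrial DNA genes (0.36). With 3 libraries a group, 1 of which stands apart, these data limit what can be called. In the reported fit, which has no replicate block, the 95% interval of each named member spans more than 1 log2 unit. With the block intervals could be narrower, as for uqcrfs1 (-0.23 to 0.60 by edgeR's quasi-likelihood fit).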

Other observations

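A further 7 rows with names in capital letters also name subunits or factors of these complexes and fall outside the case-sensitive patterns. They were COX5B, NDUFB1, ATP5MD, NDUFAF8, NDUFA13, NDUFC1 and a row named COX7A2 (1 of many). COX5B was at 149.9, 111 and 110.1 CPM in vehicle 2, 3 and 4 and 299, 97.8 and 123 CPM in BMS 2, 3 and 4. NDUFB1 was at 13.8, 12.2 and 15.0 CPM in vehicle and 35.0, 10.2 and 17.9 CPM in BMS. Both were highest in BMS 2 and lowest in BMS 3. All 7 were higher than vehicle in pair 2, 1 in pair 3 and 6 in pair 4. The gene cyc1, named for cytochrome c1 of complex III, also falls outside the patterns. It was read with the electron carriers, at 124, 89.1 and 72.6 CPM in vehicle and 178, 81.4 and 73.3 CPM in BMS. The complex III rows above therefore do not include it.

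The count table also holds 24 rows named by the mitochondrial sequence record in place of a gene, of which 19 had 0 reads in all 6 libraries. One of these rows held 2.51%, 2.38% and 3.44% of all counts in vehicle 2, 3 and 4 and 2.94%, 2.38% and 3.798% in BMS 2, 3 and 4, above the summed share of the 13 protein genes in each library. Number 4 was highest in both groups. The files do not pair the row with a gene.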
